A study of Mus musculus with 15 samples.

Results

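The cytochrome P450 genes of families 1, 2 and 3 were compared in the livers of XKA, Model and Normal mice. They were taken as every gene whose symbol in the platform annotation was Cyp1, Cyp2 or Cyp3 followed directly by a letter, and each gene was read from 1 probe set, the one with the highest mean over all arrays. This gave 43 genes among the 18193 genes measured. The XKA group was male KKAy mice given XKA (Xiao-Ke-An, a Chinese herbal medicine) at 1.5 g/kg by mouth each day for 32 days, the Model group was male KKAy mice given distilled water, and the Normal group was male C57BL/6J mice given distilled water. There were 5 arrays per group and 1 mouse per array, and the KKAy mice were 10 weeks old when dosing began, with the C57BL/6J mice matched to them in age. KKAy is an obese and diabetic strain that carries the yellow allele of the agouti gene. The KKAy groups ate high-fat food and the Normal group ate chow, and each strain was bought from a different supplier. Strain, food and supplier therefore cannot be told apart in any comparison with Normal, and whether the livers came from fed or fasted mice is not settled by the methods. The KKAy and C57BL/6J genomes can also differ in sequence under a probe, which cannot be told apart from a difference in transcript level.

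P450 enzymes of these families sit in the endoplasmic reticulum, where they take electrons from cytochrome P450 reductase and insert oxygen into drugs, dietary compounds, steroids and fatty acids. The liver holds most of them, mainly in the hepatocytes around the central vein. Family 1 is induced through the aryl hydrocarbon receptor AHR, Cyp2b10 and several Cyp2c genes through the constitutive androstane receptor CAR (Nr1i3), and Cyp3a11 through the pregnane X receptor PXR (Nr1i2). In mice most of the Cyp2c genes lie close together on chromosome 19, and many Cyp2c enzymes oxidise arachidonic acid or retinoids.

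The 43 genes fell into 14 subfamilies, of which Cyp2c with 11 genes, Cyp2d with 8, Cyp2j with 5 and Cyp3a with 5 were the largest. Signals are probe-set intensities scaled to a median of 1000 on each array. On this scale 38 of the 43 genes had a mean above 1000 in at least 1 group and 5 did not. Probe sets whose suffix marks possible pick-up of related transcripts (s_at) stood for 3 genes, Cyp2b10, Cyp2c23 and Cyp2c65. The close copies Cyp2a4 and Cyp2a5 shared 1 probe set, and so did Cyp3a41a and Cyp3a41b, so these carried several symbols and were no members. All Cyp2c genes are close relatives, and the extent to which each probe set takes up its neighbours' transcripts was not tested.

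Of the 43 genes, 7 passed the test in at least 1 comparison and 36 in none. A gene was called at a limma Benjamini-Hochberg adjusted p under 0.05 over all genes measured. In Model against Normal livers, Cyp2c39, Cyp1b1 and Cyp2u1 were higher, and Cyp2c37, Cyp2c68, Cyp2c54 and Cyp2c50 were lower. In XKA against Normal livers, Cyp2c39 and Cyp1b1 were higher and the same 4 Cyp2c genes were lower, in a comparison that shares its Normal arrays with the first. In XKA against Model livers no member was called in either direction.

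The share of members called is read beside the share of all genes called in the same direction. In Model against Normal livers 3 of 43 members were higher (6.98%, against 10.6% of all genes) and 4 were lower (9.3%, against 2.43%). In XKA against Normal livers 2 were higher (4.65%, against 5.53%) and 4 were lower (9.3%, against 1.95%). In XKA against Model livers the shares over all genes were 0.066% higher and 0.11% lower, with 0 members in each direction. The median log2 difference of the members was 0.17 in Model against Normal, beside 0.15 over all genes, and 0.07 in XKA against Normal, beside 0.10. The median over all genes in Model against Normal was -0.04 without scaling and 0.04 after quantile normalization. The split of all calls moved with it, from 1924 higher and 442 lower genes with the scaling to 1137 and 1027 without it and 1602 and 1102 after quantile normalization. In XKA against Normal the splits were 1006 and 355, 703 and 780, and 1020 and 805.

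**Figure D1:**
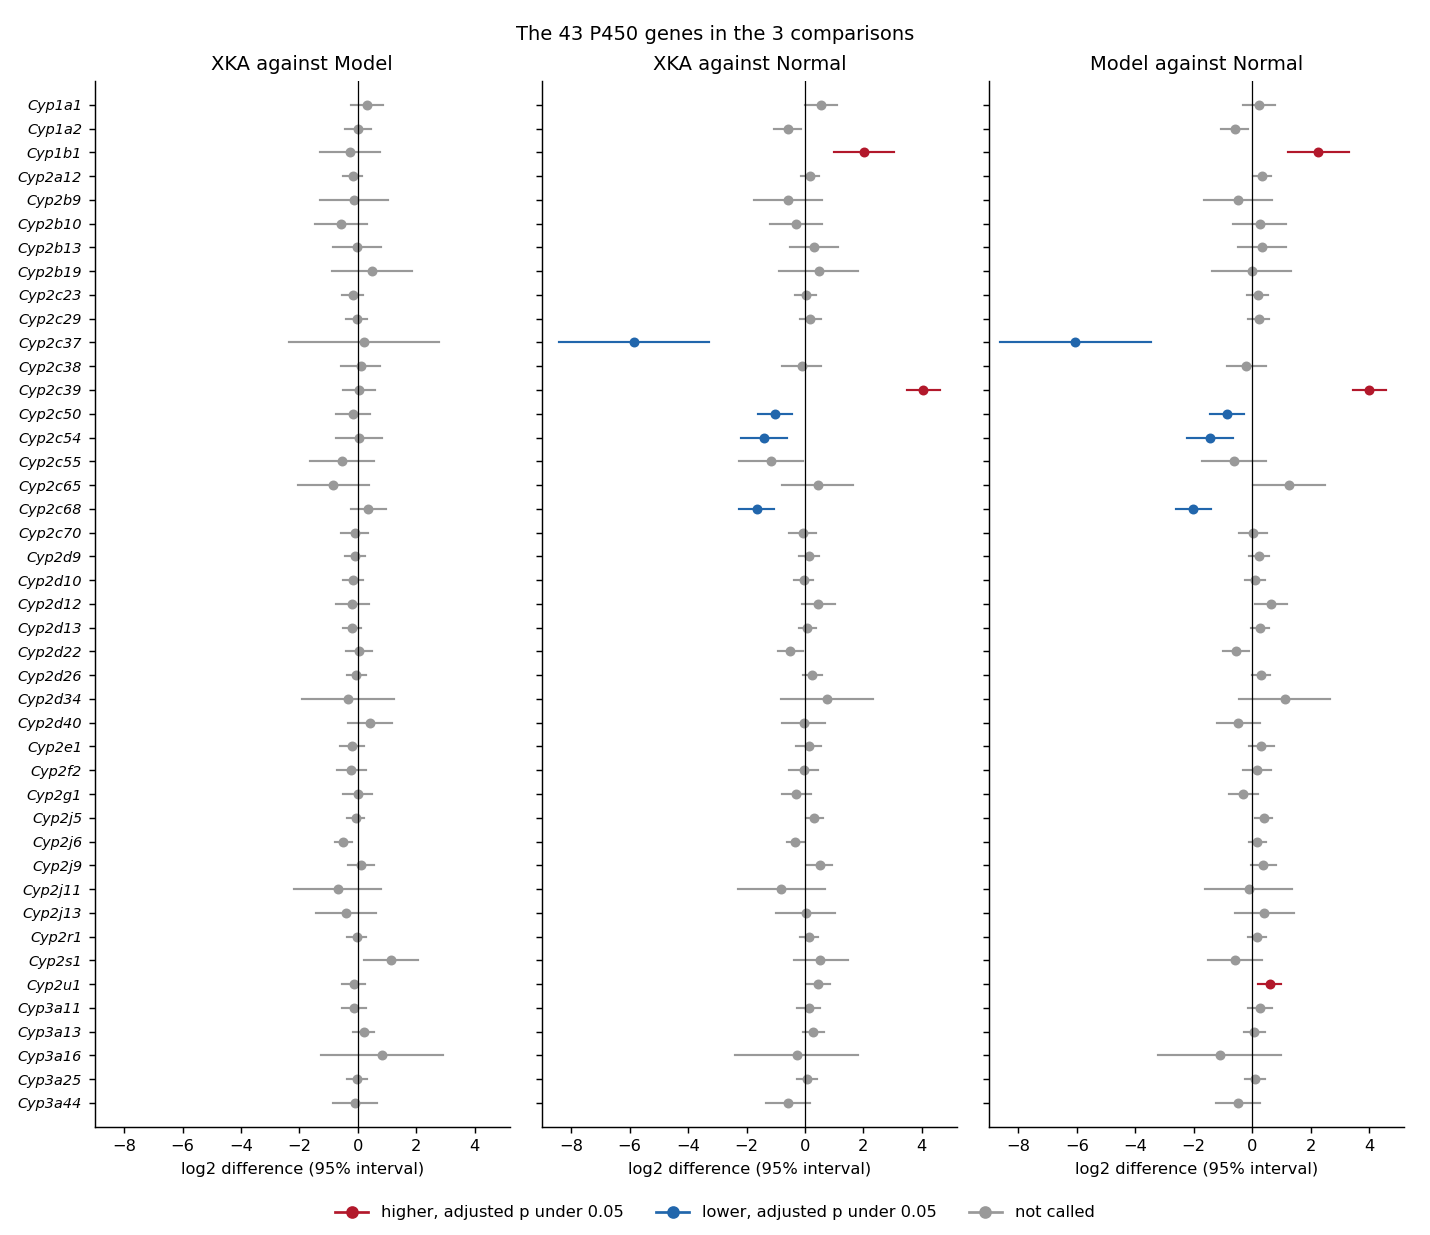
Log2 difference of each of the 43 P450 genes (rows, grouped by subfamily) in XKA against Model, XKA against Normal and Model against Normal livers (columns), with 95% intervals from limma and 5 arrays per group. Red and blue mark genes called higher and lower. The calls against Normal lie mostly in Cyp2c, and the column for XKA against Model holds none.

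The upstream bases of 5 Cyp2c genes are given here because close neighbours in 1 gene cluster moved in opposite directions. Cyp2c37, Cyp2c50 and Cyp2c68 were lower in the KKAy groups, Cyp2c39 was higher and Cyp2c29, beside it, was not called. Each line holds the 250 bases before the annotated start from RefSeq (GRCm38.p6, the C57BL/6J reference), 5′ to 3′. Capitals mark CAAAGTC, the core that the liver factor HNF4A prefers, on either strand. Cyp2c39 had 2 annotated windows, and only the one nearest the annotated start of its gene is shown and used. The bases that KKAy mice carry here were not read.
Cyp2c37 (chr19:39992174-39992423, plus strand): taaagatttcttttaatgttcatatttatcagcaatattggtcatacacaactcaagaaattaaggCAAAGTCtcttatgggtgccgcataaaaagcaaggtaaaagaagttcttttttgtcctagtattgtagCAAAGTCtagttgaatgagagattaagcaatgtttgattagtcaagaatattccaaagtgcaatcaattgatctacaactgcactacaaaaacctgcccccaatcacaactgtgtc
Cyp2c50 (chr19:40089429-40089678, plus strand): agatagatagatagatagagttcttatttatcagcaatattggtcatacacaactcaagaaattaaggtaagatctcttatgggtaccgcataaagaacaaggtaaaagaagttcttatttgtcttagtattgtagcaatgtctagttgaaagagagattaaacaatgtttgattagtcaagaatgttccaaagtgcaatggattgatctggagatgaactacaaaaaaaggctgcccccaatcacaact
Cyp2c68 (chr19:39741102-39741351, minus strand): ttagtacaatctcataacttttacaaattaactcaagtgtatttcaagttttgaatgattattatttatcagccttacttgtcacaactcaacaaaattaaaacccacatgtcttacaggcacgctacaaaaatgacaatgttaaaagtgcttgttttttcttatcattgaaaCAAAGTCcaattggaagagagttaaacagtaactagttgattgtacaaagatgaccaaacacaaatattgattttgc
Cyp2c39 (chr19:39347096-39347345, plus strand): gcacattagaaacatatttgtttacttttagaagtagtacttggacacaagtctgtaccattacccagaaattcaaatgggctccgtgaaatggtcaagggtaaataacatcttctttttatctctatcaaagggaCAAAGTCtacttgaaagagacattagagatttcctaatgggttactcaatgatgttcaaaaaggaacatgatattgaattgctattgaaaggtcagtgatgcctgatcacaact
Cyp2c29 (chr19:39286835-39287084, plus strand): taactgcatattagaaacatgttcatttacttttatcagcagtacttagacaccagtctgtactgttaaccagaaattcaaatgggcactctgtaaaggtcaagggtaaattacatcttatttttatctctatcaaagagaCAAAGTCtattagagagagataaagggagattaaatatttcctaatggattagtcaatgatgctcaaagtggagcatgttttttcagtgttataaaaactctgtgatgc

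The Cyp2c37 and Cyp2c50 windows were identical at 86% of positions after alignment, and those of Cyp2c39 and Cyp2c29 at 78%, whereas every other pair among the 5 lay between 57.2% and 61.2%. Cyp2c37 held the CAAAGTC core 2 times, at positions -184 and -116 from the start, Cyp2c68, Cyp2c39 and Cyp2c29 held it 1 time each, and Cyp2c50 held no match. A window was found for 35 of the 43 members, and Cyp2c54 was among the 8 others. The core occurred in 10 of the 35 windows (28.6%), against 3.8% of 27025 gene windows of the same length. TATAAA, the core of the TATA box, occurred in 17 of 35 (48.6%, against 13%), and AGGTCA, a core bound by many nuclear receptors, in 11 of 35 (31.4%, against 13.8%). GCGTG, the core bound by AHR, occurred in 6 of 35 (17.1%, against 28.3%), including Cyp1a1 and Cyp1b1. All were searched on both strands, none contains another, and a match is a match of letters only.

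Cyp2c37, which oxidises arachidonic acid, had the largest difference of the members. Its signal was 1651, 212801, 2280, 973 and 4698 in XKA replicates 1 to 5 and 142897, 4023, 739, 1935 and 2171 in Model replicates 1 to 5, against 330453, 325199, 227753, 306535 and 306446 in the Normal replicates. Every KKAy array was below every Normal array. In 8 of the 10 KKAy arrays the signal lay between 739 and 4698, and XKA replicate 2 and Model replicate 1 stood apart, far nearer to the Normal range. The log2 difference was -6.05 ± 1.23 (SE, n = 5 each) in Model against Normal (limma adjusted p = 0.00244) and -5.85 ± 1.23 in XKA against Normal (adjusted p = 0.00482). XKA against Model was 0.21 with a 95% interval from -2.37 to 2.79. Leaving out Model replicate 1 moved Model against Normal to -7.30, and leaving out XKA replicate 2 moved XKA against Normal to -7.19. XKA against Model, not called, was 1.46 without the first of these arrays and -1.13 without the second.

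Cyp2c68 was lower in all 10 KKAy arrays, with no overlap. Its signal was 28650, 68177, 72593, 93208 and 40316 in XKA replicates and 54625, 49078, 31490, 64885 and 27568 in Model replicates, against 228588, 216884, 128753, 169626 and 150538 in Normal replicates. The group means were 60589 ± 25965 in XKA, 45529 ± 15730 in Model and 178878 ± 42769 in Normal livers (SD, n = 5 each). This was a log2 difference of -2.02 ± 0.28 (SE) in Model against Normal and -1.65 ± 0.28 in XKA against Normal (limma adjusted p = 7.16e-05 and 0.000818). XKA against Model was 0.36, with an interval from -0.23 to 0.96.

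Cyp2c54, whose enzyme oxidises arachidonic and linoleic acid, had signals of 51028, 251927, 192996, 116045 and 104173 in XKA replicates and 246158, 147734, 47177, 142371 and 104363 in Model replicates. The Normal replicates had 427183, 351648, 268634, 297386 and 318410, above every KKAy array. Model livers differed from Normal by -1.45 ± 0.38 on the log2 scale (SE, limma adjusted p = 0.0154) and XKA livers by -1.40 ± 0.38 (adjusted p = 0.0277). The first call held in all 15 runs that each left out 1 array. The second held in 8 of 15 and was lost without XKA replicate 1, 4 or 5 or Normal replicate 1, 2, 4 or 5, at adjusted p between 0.051 and 0.0676.

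Cyp2c50, which oxidises the same fatty acids, had the smallest difference among the 4 lower genes. Its signals were 153455, 505585, 267247, 218692 and 224196 in XKA replicates and 497996, 285993, 176778, 301173 and 229551 in Model replicates, against 629903, 558778, 413696, 491876 and 483528 in Normal replicates. XKA replicate 2 and Model replicate 1 lay within the Normal range, and the other 8 KKAy arrays lay below it. On the log2 scale this was -0.86 ± 0.28 (SE) in Model against Normal and -1.02 ± 0.28 in XKA against Normal (limma adjusted p = 0.0452 and 0.0277). The Model call held in 3 of 15 runs that each left out 1 array, those without Model replicate 1, XKA replicate 1 or XKA replicate 2, and the adjusted p ran from 0.0132 to 0.135. The XKA call held in 8 of 15 and was lost without XKA replicate 1, 3, 4 or 5 or Normal replicate 1, 2 or 4, where the adjusted p ran up to 0.0706.

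Cyp2c39, known as a retinoic acid hydroxylase of mouse liver, was the one Cyp2c gene that was higher. It had signals of 38361, 40616, 58049, 26708 and 58180 in XKA replicates and 32615, 56406, 23433, 78467 and 36204 in Model replicates. The Normal replicates had 2209, 3497, 2822, 2473 and 2115, so that the lowest KKAy array was far above the highest Normal array. Group means were 44383 ± 13601 in XKA, 45425 ± 22052 in Model and 2623 ± 560 in Normal livers (SD, n = 5 each). The log2 difference was 4.01 ± 0.27 (SE) in Model against Normal (limma adjusted p = 4.49e-09) and 4.05 ± 0.27 in XKA against Normal (adjusted p = 4.23e-09). XKA and Model differed by 0.04, with an interval from -0.52 to 0.60.

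**Figure D2:**
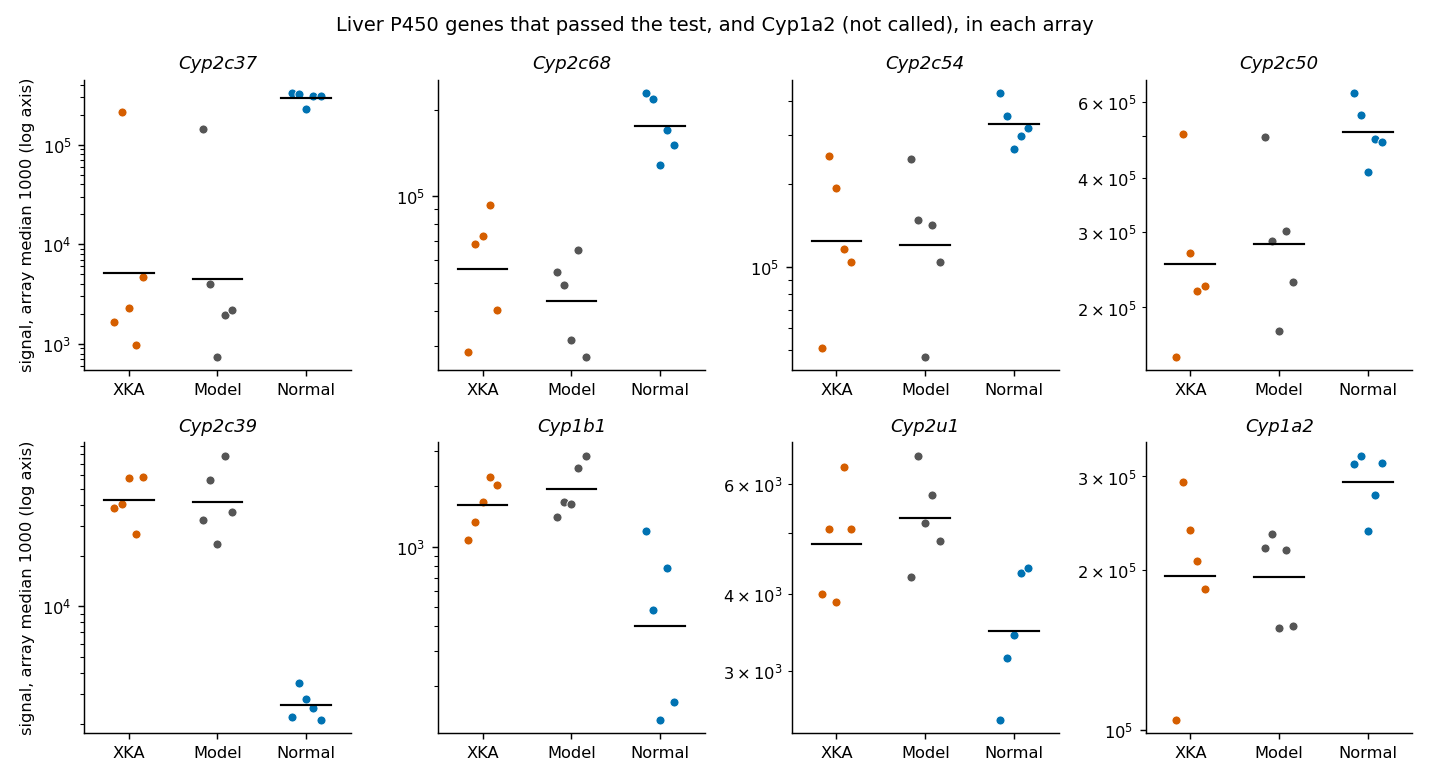
Signal of the 7 called members and of Cyp1a2, which was not called, in each array (points, log axis, array median 1000) in XKA, Model and Normal livers, 5 arrays each. Lines are means of the log2 signals. Cyp2c37 in XKA replicate 2 (212801) and Model replicate 1 (142897) stands far above the other KKAy arrays.

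Along chromosome 19 the measured Cyp2c genes stand in the order Cyp2c55, Cyp2c65, Cyp2c29, Cyp2c39, Cyp2c38, Cyp2c68, Cyp2c37, Cyp2c54, Cyp2c50, Cyp2c70 and Cyp2c23. The 4 lower genes were consecutive in this order, with 3 other annotated genes between Cyp2c68 and Cyp2c37 and none between Cyp2c37, Cyp2c54 and Cyp2c50. Between Cyp2c70 and Cyp2c23 lay 101 annotated genes. Cyp2c70, which makes muricholic bile acids in mice, is the next gene after Cyp2c50 and had a log2 difference of 0.03 in Model against Normal and -0.08 in XKA against Normal. Cyp2c29, an abundant arachidonic acid epoxygenase that precedes Cyp2c39, had 0.22 and 0.18, and Cyp2c38, on the other side, had -0.20 and -0.11. None of these 3 was called.

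XKA replicate 2 and Model replicate 1 were also the highest of the 10 KKAy arrays for Cyp2c50, Cyp2c54 and Cyp2c55. Cyp2c55, which forms hydroxylated arachidonic acid, had 15794 in XKA replicate 2 and 16089 in Model replicate 1, and 1709 to 10756 in the other 8 KKAy arrays. The gap between the lower of these 2 arrays and the highest of the other 8 was 4.93 on the log2 scale for Cyp2c37, 0.73 for Cyp2c50, 0.55 for Cyp2c55 and 0.35 for Cyp2c54. In Cyp2c39, Cyp2c68 and Cyp2c29 the pair did not lie above the others. Among the 11629 genes with a mean above 1000 over all arrays, 2.64% had both arrays above the other 8, and the gaps of Cyp2c37, Cyp2c50, Cyp2c55 and Cyp2c54 ranked 1, 3, 4 and 10. The share was 4.35% among 414 chromosome 19 genes outside Cyp2c, 4 of 10 among the Cyp2c members and 1 of 27 among the other members. The pair was noticed through Cyp2c37, so these shares are a description. Without both arrays 3 members were higher and 4 lower in Model against Normal, and 2 higher and 5 lower in XKA against Normal, the addition being Cyp2c55 at -1.60 (limma adjusted p = 0.0469).

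**Figure D3:**
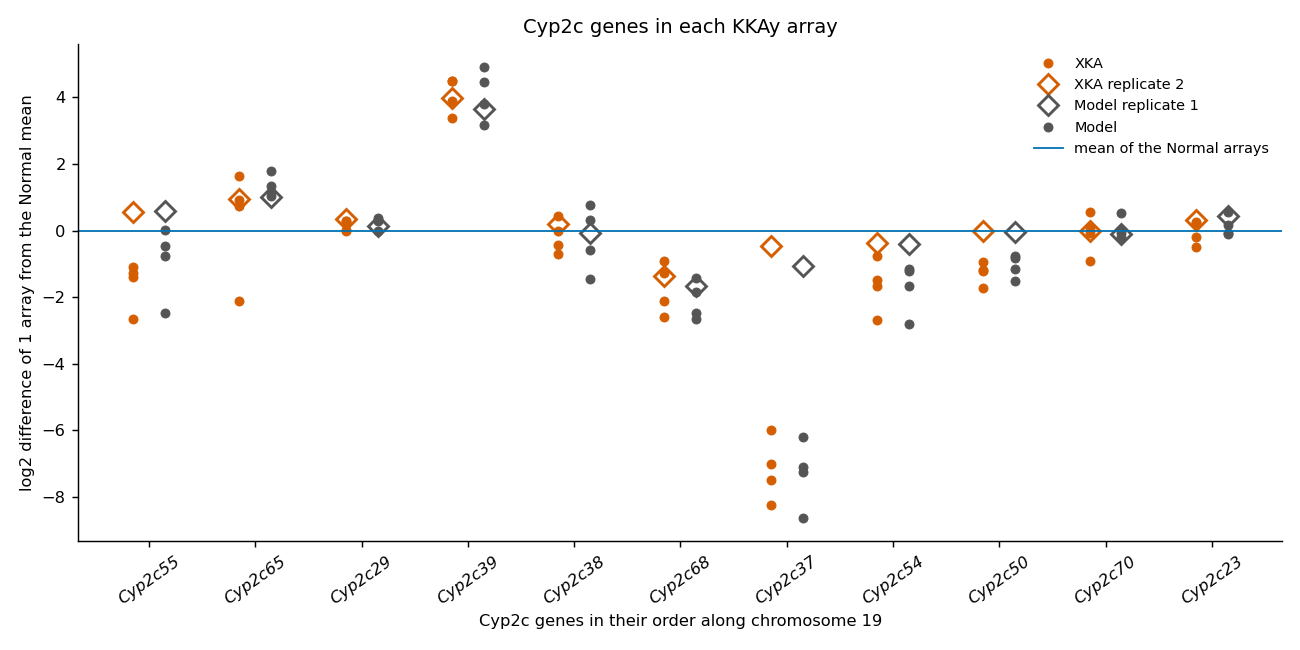
Log2 difference of each KKAy array from the mean of the 5 Normal arrays (vertical axis) for the 11 Cyp2c genes in their order along chromosome 19, with XKA arrays in orange and Model arrays in grey. Open diamonds are XKA replicate 2 and Model replicate 1, which lie above the other 8 KKAy arrays in Cyp2c37, Cyp2c50, Cyp2c54 and Cyp2c55. Cyp2c23 lies apart from the others, with 101 annotated genes between it and Cyp2c70.

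Of family 1, Cyp1b1 was higher in the KKAy groups and Cyp1a1 and Cyp1a2 were not called. Cyp1b1, an enzyme of estradiol and polycyclic hydrocarbons found mostly outside hepatocytes, had signals of 1078, 1326, 1662, 2239 and 2032 in XKA replicates, 1400, 1675, 1635, 2465 and 2851 in Model replicates and 1191, 483, 136, 780 and 167 in Normal replicates. Model and Normal arrays did not overlap, while XKA replicate 1 lay below Normal replicate 1. These gave a log2 difference of 2.27 ± 0.49 (SE) in Model against Normal and 2.01 ± 0.49 in XKA against Normal (limma adjusted p = 0.00403 and 0.0149). The Normal mean of 551 was below the array median, and of the other 2 Cyp1b1 probe sets, both dimmer, one had 1.48 in Model against Normal and 1.57 in XKA against Normal and the other -0.13 and 0.36. With the mean of the 3 probe sets the differences were 1.21 and 1.31 and the call was lost (adjusted p = 0.246 and 0.259).

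Cyp1a2, which oxidises caffeine and aromatic amines, had signals of 104647, 293068, 238123, 208223 and 184492 in XKA replicates and 219724, 234075, 155615, 218542 and 156896 in Model replicates, against 317244, 328352, 237426, 277196 and 317892 in Normal replicates. All 5 Model arrays were below all 5 Normal arrays, and 2 XKA arrays lay within the Normal range. The log2 difference was -0.60 ± 0.22 (SE) in Model against Normal and -0.59 ± 0.22 in XKA against Normal, which missed the threshold (limma adjusted p = 0.0803 and 0.117). Without scaling the differences were -0.79 and -0.75 and passed it (adjusted p = 0.00754 and 0.0147), as they did after quantile normalization (-0.77 and -0.70). Model against Normal also passed in the fit of those 10 arrays alone and among the genes above the array median (adjusted p = 0.0229 and 0.0478). Of the 15 runs that each left out 1 array, 1 passed in each comparison. Model against Normal passed without XKA replicate 1 (adjusted p = 0.0196) and had adjusted p up to 0.187 in the others. XKA against Normal passed without XKA replicate 2 (-0.74, adjusted p = 0.0479) and was smallest without XKA replicate 1 (-0.37, with adjusted p up to 0.257 over the runs). Cyp1a1, an AHR target that is low in uninduced liver, averaged 2461 ± 462 in XKA, 1978 ± 458 in Model and 1734 ± 566 in Normal livers (SD, n = 5 each).

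Cyp2u1, a fatty acid hydroxylase, was called only in Model against Normal. Its signals were 3992, 5075, 3879, 6390 and 5078 in XKA replicates, 4256, 6658, 5189, 5753 and 4850 in Model replicates and 2510, 3157, 3429, 4321 and 4397 in Normal replicates, with 1 Model array inside the Normal range. The log2 difference was 0.60 ± 0.19 (SE) in Model against Normal (limma adjusted p = 0.0435) and 0.46 ± 0.19 in XKA against Normal (adjusted p = 0.173). XKA against Model was -0.14, with an interval from -0.54 to 0.26. The call was lost without scaling (0.41, adjusted p = 0.231), after quantile normalization (0.47, adjusted p = 0.131) and in 7 of 15 runs that each left out 1 array, those without Model replicate 2, 3 or 4, XKA replicate 2 or Normal replicate 1, 2 or 3 (adjusted p up to 0.117).

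The brightest members were not called in any comparison. Cyp3a11, the main drug-oxidising enzyme of family 3 in mouse liver, had signals of 684065, 669769, 640925, 650999 and 516022 in XKA replicates, 815897, 613582, 881038, 698500 and 519019 in Model replicates and 785922, 522207, 438765, 614099 and 571064 in Normal replicates, so the groups overlapped. Cyp2e1, which oxidises ethanol and acetaminophen and is known to rise in fasting and diabetes, had 610126, 602071, 553535, 546579 and 449763 in XKA replicates, 721910, 572287, 814444, 613416 and 479145 in Model replicates and 760513, 470087, 371631, 501982 and 481039 in Normal replicates. Cyp2e1 differed by 0.32 in Model against Normal (95% interval -0.09 to 0.74) and by -0.20 in XKA against Model (-0.61 to 0.22). For Cyp3a11 these were 0.27 (-0.14 to 0.67) and -0.14 (-0.55 to 0.27). Both genes were near the top of the scale, at 59% to 93.6% of the brightest probe set of the same array for Cyp3a11 and 51.7% to 90.5% for Cyp2e1, and whether the signal was still proportional to RNA there was not tested.

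Cyp2c29 had signals of 546119, 691093, 654154, 661026 and 528306 in XKA replicates, 598518, 652626, 702819, 666056 and 531711 in Model replicates and 675149, 618280, 439413, 474659 and 522539 in Normal replicates. Cyp3a25, another family 3 gene of liver, had 416182, 577933, 559174, 515386 and 456355 in XKA replicates, 549652, 575230, 488643, 507129 and 441660 in Model replicates and 569903, 488304, 408626, 469551 and 464625 in Normal replicates. Cyp2d10, one of the mouse relatives of human CYP2D6, had 348072, 486539, 454177, 393070 and 354523 in XKA replicates, 464039, 500304, 444001, 498413 and 357263 in Model replicates and 513275, 421577, 345045, 428532 and 402998 in Normal replicates. In all 3 genes the groups overlapped, and the log2 differences of XKA from Model were -0.03, -0.03 and -0.16. Their signals were 51.7% to 80.4%, 36.8% to 67.9% and 32.9% to 61.1% of the brightest probe set of the same array. Whether these signals were still proportional to RNA was not tested.

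Cyp2b10, the classical CAR target, varied more between mice of 1 group than between groups. Its signals were 17738, 61845, 83783, 75773 and 85497 in XKA replicates, 83479, 78012, 45608, 100077 and 143438 in Model replicates and 162293, 117175, 36231, 49183 and 51446 in Normal replicates. XKA against Model was -0.57 (95% interval -1.46 to 0.33) and Model against Normal was 0.26 (-0.64 to 1.15). Single arrays moved these values: XKA against Model was -0.15 without XKA replicate 1 and -0.79 without Model replicate 3, and Model against Normal was 0.02 without Normal replicate 3 and 0.56 without Normal replicate 1. The other 2 Cyp2b10 probe sets, read on the same arrays, gave -0.68 and -0.61 in XKA against Model.

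No member separated XKA from Model after adjustment by limma, and none did in the Dunnett comparison named in the methods after Benjamini-Hochberg adjustment. At an unadjusted p under 0.05 limma had 1 member higher and 1 lower (2.33% each), against 2.77% higher and 5.84% lower over all genes, and the unadjusted Dunnett comparison gave the same 2 genes. Cyp2j6, an arachidonic acid epoxygenase, had signals of 9904, 11645, 8287, 8408 and 8748 in XKA replicates, 14100, 13255, 13930, 15305 and 9801 in Model replicates and 13231, 13195, 9857, 11383 and 11082 in Normal replicates. In 4 of the 5 Model arrays the signal was above every XKA array, and the log2 difference was -0.49 ± 0.14 (SE, limma adjusted p = 0.208). The second Cyp2j6 probe set gave -0.39. Cyp2s1, an enzyme mostly of tissues other than liver, had a log2 difference of 1.13 ± 0.44 (SE, limma adjusted p = 0.454), with signals of 562 to 1607 in XKA livers, 207 to 983 in Model livers and 523 to 842 in Normal livers. These 2 genes were singled out after their values were seen. Across all 43 members the log2 differences of XKA from Model ran from -0.84 to 1.13 with a median of -0.09, beside -0.06 over all genes, and the median SE was 0.26.

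The remaining subfamilies held no call. The 8 Cyp2d genes lay between -0.55 (Cyp2d22) and 1.11 (Cyp2d34, near the array median) in Model against Normal, with a median of 0.26. The value of Cyp2d34 rested on Normal replicate 1: its signal was 757 to 1593 in Model livers, against 32 in that array and 1003 to 1448 in the other 4 Normal arrays, and without that array the difference was 0.06. Cyp2d22 averaged 35995 ± 12152 in XKA, 34052 ± 8372 in Model and 48718 ± 5933 in Normal livers (SD, n = 5 each). Its differences of -0.55 and -0.50 from Normal were called only without scaling (-0.74 and -0.66), after quantile normalization (-0.74 and -0.65) and, for Model, in the fit of the Model and Normal arrays alone and without XKA replicate 1 (limma adjusted p = 0.0374), a run in which XKA against Normal was -0.31. The 5 Cyp2j genes lay between -0.12 and 0.42 in Model against Normal and between -0.69 and 0.12 in XKA against Model. Cyp2j5, an arachidonic acid epoxygenase of liver and kidney, averaged 227152 ± 27577 in XKA, 239057 ± 31528 in Model and 181642 ± 16516 in Normal livers, and its 0.39 in Model against Normal had a limma adjusted p of 0.0693. It passed in 1 of 15 runs that each left out 1 array, that without Model replicate 5 (0.48, adjusted p = 0.0165). It also passed after quantile normalization (0.22, adjusted p = 0.0291) and among the genes above the array median (adjusted p = 0.0332). Array weights (0.41, adjusted p = 0.0272) and the unadjusted Dunnett comparison gave a call too. In XKA against Normal its 0.32 passed only after quantile normalization (0.22, limma adjusted p = 0.0442) and in the unadjusted Dunnett comparison. The second, dimmer Cyp2j5 probe set gave 0.01 in Model against Normal and 0.05 in XKA against Normal. With the mean of its probe sets the differences were 0.20 and 0.18, neither called (limma adjusted p = 0.366 and 0.497). The 5 Cyp3a genes lay between -1.11 and 0.27 in Model against Normal. The lowest was Cyp3a16, whose mean was below 1000 in every group. Its difference ran from -1.87 without Model replicate 3 to -0.49 without Model replicate 2, and reached -0.01 over the 28 alternatives that tested it. Its signals were 338, 16, 757, 30 and 47 in Model replicates and 258, 383, 179, 109 and 140 in Normal replicates. On the linear scale its mean was 238 in Model and 214 in Normal livers. Cyp2d22, Cyp2d34, Cyp2j5, Cyp3a16 and Cyp2c55 were named after their values were seen.

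The level of acute phase genes, which hepatocytes turn on in inflammation, differed between groups and between mice of a group. Of 26 measured acute phase genes 15 were higher and none lower in Model against Normal (median log2 difference 1.42) and 9 were higher and none lower in XKA against Normal (1.10). Summed over the list the signal was 4975656 to 11451521 in XKA, 6276523 to 14299647 in Model and 3953005 to 5976968 in Normal livers. By mean log2 deviation the highest arrays were Model replicate 3 (1.48) and XKA replicate 1 (1.31), and the 5 Normal arrays lay between -1.05 and -0.47. These 2 arrays were the lowest of their groups for 9 of the 37 members with a mean above 1000 (24.3%, against 6.48% of 11629 genes), which were Cyp1a2, Cyp2b9, Cyp2b10, Cyp2c23, Cyp2c50, Cyp2c54, Cyp2c55, Cyp2d22 and Cyp2f2. They were the highest of their groups for 4 members (10.8%, against 7.91%), Cyp2c70, Cyp2e1, Cyp3a11 and Cyp3a13. Without both arrays, the acute phase list had 14 genes higher in Model against Normal (median 1.18) and 7 in XKA against Normal (median 0.59). In the same fit 2 members were higher (Cyp1b1 and Cyp2c39) and 3 lower in Model against Normal, where Cyp2c50 and Cyp2u1 missed the threshold, and 2 were higher and 4 lower in XKA against Normal. The part of the acute phase level in the P450 signals was not tested.

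**Figure D4:**
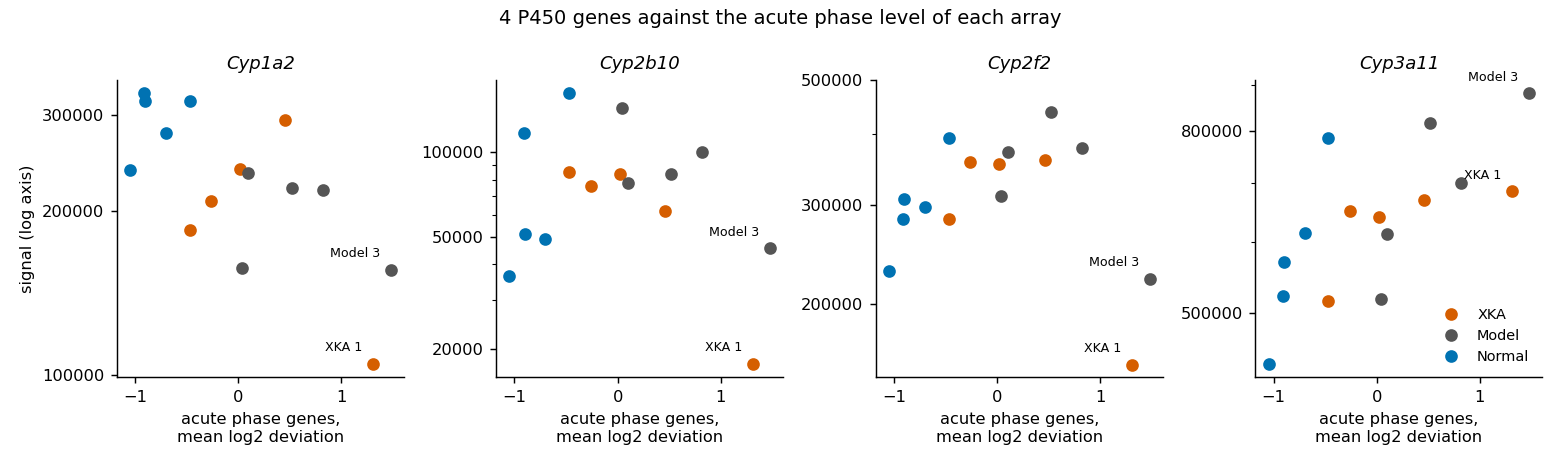
Signal of Cyp1a2, Cyp2b10, Cyp2f2 and Cyp3a11 (vertical, log axis) against the mean log2 deviation of 26 acute phase genes (horizontal) in each of 15 arrays, coloured by group and chosen as examples after the values were seen. XKA 1 and Model 3 are the arrays with the highest acute phase level of their groups, and they are the lowest of their groups in the first 3 panels and the highest in the fourth.

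Among 33 measured regulators and partners of P450 enzymes, 4 were higher and 1 was lower in Model against Normal, 3 were higher and 2 lower in XKA against Normal, and none was called in XKA against Model. The balance moved with the scaling: without it, 0 were higher and 4 lower in Model against Normal, and after quantile normalization 1 was higher and 4 lower. Stat5a had the largest difference of the 4 higher genes, 0.64 in Model against Normal (limma adjusted p = 0.0116). It was 0.45 without scaling (adjusted p = 0.0834) and 0.51 after quantile normalization (adjusted p = 0.0269). Ahr, the receptor that induces family 1, averaged 26981 in XKA, 24103 in Model and 44007 in Normal livers. Its log2 difference was -0.84 ± 0.17 (SE) in Model against Normal and -0.66 ± 0.17 in XKA against Normal (limma adjusted p = 0.00201 and 0.0183). Both calls held without scaling (-1.03 and -0.81) and after quantile normalization (-1.03 and -0.80). Foxa1, a forkhead factor of hepatocytes, was lower in XKA against Normal (-0.82, adjusted p = 0.00373), and Alas1, which makes the first step of haem synthesis, was higher (1.46, adjusted p = 0.00452). In Model against Normal they had -0.42 and 0.64 and were not called (limma adjusted p = 0.107 and 0.195). Foxa1 was called there without scaling (-0.62, adjusted p = 0.0305) and after quantile normalization (-0.60, adjusted p = 0.043). XKA against Model was -0.39 for Foxa1 and 0.82 for Alas1, neither called. Nr1i2, the gene of PXR, averaged 16764 in XKA, 12278 in Model and 13153 in Normal livers, and Nr1i3, the gene of CAR, averaged 43190 in XKA, 36448 in Model and 37514 in Normal livers. Neither was called in any comparison.

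Targets of CAR and PXR outside the 3 families did not move one way. Of 24 measured, 4 were higher and 3 lower in Model against Normal, and 3 were higher and 2 lower in XKA against Normal. Without scaling these counts were 2 and 4, and 3 and 4. Slco1a4, a bile salt and drug importer, averaged 10882 in XKA, 8827 in Model and 95482 in Normal livers, with log2 differences of -3.37 in XKA against Normal and -3.44 in Model against Normal (limma adjusted p = 2.21e-06 and 1.28e-06). Ces2a, a drug-cleaving esterase, had -2.42 in XKA and -1.72 in Model against Normal, and Fmo5, a flavin monooxygenase, had 0.92 in XKA and 1.34 in Model against Normal, all called. Of 10 AHR targets 1 was higher in Model against Normal, Xdh (xanthine dehydrogenase, 0.57, adjusted p = 0.0119), and none was lower, and in XKA against Normal 2 were higher and 1 was lower. Of 16 genes known as higher in female liver, 1 was higher and 5 were lower in Model against Normal, and 2 were higher and 2 lower in XKA against Normal. Of 15 known as higher in male liver, 4 were higher and 1 was lower in Model against Normal, and 3 were higher and 1 was lower in XKA against Normal. Without scaling the male list had 2 higher and 1 lower in Model against Normal and 2 higher and 3 lower in XKA against Normal, and the female list had 1 and 5, and 1 and 3. In XKA against Model the only call among these 4 lists was Elovl3, a male-biased fatty acid elongase (-1.52, adjusted p = 0.0015).

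Of 9 measured hepatocyte markers 1 was higher in Model against Normal and 1 in XKA against Normal, and the summed signal was 3481900 to 4620337 in XKA, 3663962 to 5758070 in Model and 3121633 to 5007474 in Normal livers. Of 18 pericentral hepatocyte genes outside the 3 families, 4 were higher and 2 lower in Model against Normal, with a median of 0.10, and 1 was higher and 2 lower in XKA against Normal. Of 12 macrophage markers 2 were higher and 1 was lower in Model against Normal, and they summed to 161044 to 289494 in XKA, 206628 to 503089 in Model and 169225 to 307024 in Normal livers. The 3 measured erythroid markers summed to 22832 to 31989 in XKA and 25444 to 42215 in Model livers, against 7770 to 16432 in Normal livers. Only 1 of the 3 was higher in each comparison with Normal, and none was lower. Their log2 differences ran from -0.78 to 1.88 in Model against Normal and from -0.42 to 1.42 in XKA against Normal. In whole liver, fewer cells of a type and less RNA per cell cannot be told apart. Array medians before scaling were 136 to 161 in XKA, 127 to 162 in Model and 146 to 182 in Normal arrays, and no 2 arrays held identical values.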

How the data were processed

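Liver RNA of 15 mice, 5 per group, was hybridised to Affymetrix mouse whole-genome arrays, 1 mouse per array. The deposited file held linear intensity values per probe set from the authors, whose methods name ArrayTrack with median scaling to 1000. The deposited medians differ from 1000, so each array was scaled to that median here. Probe summary and background subtraction are not given in the sources used here. Arrays have no read depth, so their number limits the precision.

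Of 45101 probe sets, 34958 carried 1 gene symbol, 932 several and 9211 none. Control probe sets (64) were excluded. Symbols were updated through Entrez identifiers. Scaled signals were compared on the log2 scale in R 4.3.3 with limma 3.58.1 (intensity trend, all 15 arrays in 1 fit, two-sided, Benjamini-Hochberg over 18193 genes), and the test was checked on simulated data. Values in every array are given for the called members with a group mean above 1000, the 5 members with the highest mean, and Cyp1a2, Cyp2e1, Cyp2b10, Cyp2c29 and Cyp3a11. Of 17 gene lists written from general knowledge, 223 of 269 entries were measured, and up to 4 called genes per list were named, with Ahr, Nr1i2 and Nr1i3 in any case (Por was not analysed here). The members and lists were chosen with earlier results of these data known. In Model against Normal, the lists of cholangiocyte, stellate, endothelial, adipocyte, lymphocyte with neutrophil, and pancreas acinar markers had 0 to 2 genes higher each and none lower, and of 14 periportal genes 1 was higher and 3 were lower. Alternatives covered scaling, probe set choice, dim genes, a floor of 100, Dunnett comparisons, the prior trend, array weights, a replicate block, the arrays fitted and the removal of arrays. The removal of Model replicate 1 with XKA replicate 2 was added after the values were seen. Figures were drawn with Python 3.11.15 and matplotlib 3.10.9, and windows were aligned with Biopython 1.88.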

Additional observations from a re-analysis of the deposited data

Results flagged for a closer look

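In 7 of 114 groups of 5 arrays, over the 38 members with a group mean above 1000, 1 array stood apart, with a gap to its nearest neighbour of more than 0.71 of the whole log2 range of the group. Chance gives this in about 1 in 20 groups. In XKA livers, replicate 1 was low for Cyp2b10 (17738, against 61845 to 85497 in the other XKA arrays, ratio 0.794) and for Cyp2f2, which oxidises naphthalene (155838, against 283375 to 360052, ratio 0.714), and replicate 5 was low for Cyp3a11 (516022, against 640925 to 684065, ratio 0.769). In Model livers, replicate 3 was high for Cyp2c70 (366974, against 218804 to 253532, ratio 0.715). In Normal livers, replicate 3 was low for Cyp2c37 (227753, against 306446 to 330453, ratio 0.797) and for Cyp2c23 (119563, against 151674 to 158146, ratio 0.851), and replicate 1 was low for Cyp2d34 (32, against 1003 to 1448, ratio 0.904). Without that array the log2 difference of Cyp2d34 was 0.06 in Model against Normal, against 1.11 with it, and -0.29 in XKA against Normal, against 0.76 with it. In Normal replicate 3, 31 of the 37 members with a mean above 1000 lay below the mean log2 signal of the other Normal arrays. Their median deviation was -0.36, beside -0.14 over all genes. The same count was 26 in XKA replicates 1 and 5 and in Model replicate 3, and 6 in Normal replicate 1. XKA replicate 1 and Model replicate 3 were also the arrays with the highest acute phase level of their groups (mean log2 deviation 1.31 and 1.48). The part of that level in these values was not tested.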

How the results depend on the processing

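Cyp2c39 and Cyp2c68 were called in both comparisons with Normal under all 29 alternatives, and no called value changed sign. In Model against Normal (3 members higher, 4 lower), the unadjusted Dunnett comparison gave 6 higher and array weights 5 higher, and the adjusted Dunnett comparison gave 1 lower (Cyp2c68) and limma without the trend 2 lower (Cyp2c37 and Cyp2c68). Without scaling 2 were higher and 6 lower, and after quantile normalization 3 were higher (Cyp2j5 in place of Cyp2u1) and 6 lower (Cyp1a2 and Cyp2d22 added in both). Leaving out 1 array at a time gave 2 to 4 higher and 3 to 6 lower. In XKA against Normal (2 higher, 4 lower), the mean of the probe sets and the adjusted Dunnett comparison each gave 1 higher. Quantile normalization and the unadjusted Dunnett comparison each gave 3 higher (Cyp2j5 added). Lower members numbered 7 without scaling and 7 after quantile normalization (Cyp1a2, Cyp2d22 and Cyp2j6 added), 1 with the adjusted Dunnett comparison and 2 without the trend. Leaving out 1 array at a time gave 2 higher in each run and 2 to 5 lower, with 2 lower (Cyp2c37 and Cyp2c68) without XKA replicate 1, 4 or 5 or Normal replicate 1, 2 or 4. In XKA against Model (0 and 0), only the unadjusted Dunnett comparison gave calls, 1 higher and 1 lower. The labels do not say whether same-numbered mice shared more than a number. The correlation of their deviations was -0.0447 to 0.092, highest for replicate 5 of XKA and Model, and cannot decide this. With a replicate block, Model against Normal had 3 higher and 3 lower, Cyp2c50 being lost at a limma adjusted p of 0.0507, and XKA against Normal had 2 and 4. Of 1421 values called neither way, 67 changed sign. The SE was 0.49 to 1.01 in the 5 members with every group mean at or below 1000, 0.75 in Cyp2d34 and 1.23 in Cyp2c37, beside a median of 0.26 over all members. The cause of these changes was not tested.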
